A study of Mus musculus with 15 samples.

Results

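The genes described here encode the nuclear subunits of the 5 oxidative phosphorylation complexes. They were chosen by symbol: Nduf followed by a, b, c, s or v and a number (complex I), Sdha to Sdhd (complex II), Uqcr (complex III), Cox4 to Cox8 (complex IV) and Atp5 (complex V). These patterns gave 81 genes of the 18193 genes with a named probe set on an Affymetrix mouse expression array, 35 in complex I, 4 in complex II, 8 in complex III, 17 in complex IV and 17 in complex V. Where several probe sets bore 1 symbol, the brightest on average was kept, and all values below are deposited log2 signals of that probe set.

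RNA was measured in 5 related cell lines, with 3 arrays each. L2P was recovered from the lungs of mice whose mammary fat pad had been injected with L1P cells. L1P had itself been recovered from lung, after fat pad injection of E1KD cells. M1P was recovered from a fat pad tumour of E1KD cells, and E1KD is NMuMG with hnRNP E1, an RNA-binding protein encoded by Pcbp1, silenced. NMuMG is a wild-type, non-tumorigenic mouse mammary gland epithelial line. L2P, L1P, M1P and E1KD therefore all carry the silencing, though the Pcbp1 signal differed among them, as given below. Only L2P, L1P and M1P had grown in mice. The hosts were NOD/SCID mice, which lack T and B lymphocytes and keep myeloid and stromal cells. Each group is 1 line, a line carrying only a control vector was not analysed here, and all lines were grown in 1 medium before RNA extraction. Whether arrays of 1 line stem from independent cultures is not stated in the labels, and the p-values may reflect technical spread only.

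Oxidative phosphorylation takes place in the inner mitochondrial membrane. Complexes I and II pass electrons to ubiquinone, complex III passes them to cytochrome c, and complex IV reduces oxygen. Complexes I, III and IV pump protons, and complex V, the ATP synthase, uses the gradient to make ATP. Most subunits are encoded in the nucleus, a small core is encoded in mitochondrial DNA, and nuclear respiratory factors such as NRF1, the ETS-family factor GABP and YY1 are known to bind promoters of many nuclear subunit genes.

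The promoters of 5 of these genes show how such recognition sequences lie near the start sites. Each runs from 250 bases before to 50 bases after the RefSeq start in GRCm38.p6, on the strand of the gene. Capitals mark matches to GCGCA, any base and GCGC in a row (NRF1), CCGGAAGNG (ETS family) or AAGATGGCG (YY1) on either strand. Atp5k and Atp5j2 encode small membrane subunits of complex V, Sdhb the iron-sulfur subunit of complex II and Cox6a1 the widely expressed form of a complex IV subunit. They are shown because they carry the 3 kinds of match. Cox7a1, the muscle-type form of another complex IV subunit, is shown because it had the widest differences among the lines and no match in its window.
Atp5k, chr5:108434350-108434649, minus strand: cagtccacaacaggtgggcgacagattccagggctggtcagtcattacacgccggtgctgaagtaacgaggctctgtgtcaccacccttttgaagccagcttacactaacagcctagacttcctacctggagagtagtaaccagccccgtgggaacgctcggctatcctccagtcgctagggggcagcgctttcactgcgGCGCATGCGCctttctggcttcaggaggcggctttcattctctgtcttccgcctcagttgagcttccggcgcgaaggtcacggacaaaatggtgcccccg
Cox6a1, chr5:115348909-115349208, minus strand: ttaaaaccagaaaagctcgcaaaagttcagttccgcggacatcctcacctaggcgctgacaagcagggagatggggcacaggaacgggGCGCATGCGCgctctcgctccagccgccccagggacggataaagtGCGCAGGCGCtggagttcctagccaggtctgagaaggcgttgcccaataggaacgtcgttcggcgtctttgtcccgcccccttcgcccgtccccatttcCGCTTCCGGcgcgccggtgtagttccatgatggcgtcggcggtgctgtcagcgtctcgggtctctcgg
Sdhb, chr4:140961021-140961320, plus strand: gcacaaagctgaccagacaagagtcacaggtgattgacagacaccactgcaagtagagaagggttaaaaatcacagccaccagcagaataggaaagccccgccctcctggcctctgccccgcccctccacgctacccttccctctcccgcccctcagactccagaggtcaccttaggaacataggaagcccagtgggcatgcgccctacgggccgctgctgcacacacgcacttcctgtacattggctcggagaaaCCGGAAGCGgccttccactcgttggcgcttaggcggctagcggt
Atp5j2, chr5:145191492-145191791, minus strand: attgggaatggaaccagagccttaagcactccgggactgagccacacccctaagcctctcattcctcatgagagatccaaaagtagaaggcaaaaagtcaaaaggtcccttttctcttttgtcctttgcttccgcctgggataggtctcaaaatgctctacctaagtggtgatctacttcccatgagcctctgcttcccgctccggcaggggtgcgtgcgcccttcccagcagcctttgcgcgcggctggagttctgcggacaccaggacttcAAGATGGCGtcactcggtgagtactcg
Cox7a1, chr7:30183921-30184220, plus strand: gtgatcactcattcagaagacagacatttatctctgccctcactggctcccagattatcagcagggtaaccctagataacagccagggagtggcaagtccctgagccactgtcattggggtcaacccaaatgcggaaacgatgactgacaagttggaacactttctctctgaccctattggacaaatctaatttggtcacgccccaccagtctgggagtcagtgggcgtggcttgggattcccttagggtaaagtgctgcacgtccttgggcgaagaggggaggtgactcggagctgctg

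A promoter was found in the RefSeq table for 66 of the 81 genes. The NRF1 sequence lay in the window of 15 of the 66 genes (22.7%), against 5.19% of all 27025 genes with a promoter. The YY1 sequence lay in 6 (9.09%, against 1.64% of all genes), and the ETS sequence in 4 (6.06%, against 4.56%). At least 1 of the 3 was found in 24 (36.4%, against 10.5%). The median GC content of the windows was 58.3%, against 52.7% over all promoters. The NRF1 sequence can match both strands at 1 position, as it does in Atp5k. A match describes letters in a window and is no evidence of binding, and no match says only that these letters are not in this window.

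Before the results, the state of the arrays is given. Pcbp1, the silenced gene, had signals of 8.30, 7.95 and 8.21 in L2P, 8.78, 8.01 and 8.69 in L1P, 9.98, 10.09 and 9.41 in M1P, 9.36, 8.99 and 9.40 in E1KD, and 12.76, 12.72 and 12.57 in NMuMG. All 12 arrays of silenced lines lay below the 3 NMuMG arrays, and the difference of E1KD from NMuMG was -3.44 ± 0.22 (SE; limma, adjusted p = 3.89e-07). The silenced lines also differed in Pcbp1. It fell by 1.33 in L1P relative to M1P (adjusted p = 0.00177) and by 1.10 in L2P relative to E1KD (adjusted p = 0.0113). Differences from E1KD of 0.58 in M1P and -0.75 in L1P did not pass (adjusted p = 0.0631 and 0.114). That of L2P from L1P, -0.34, did not pass either. Array medians lay between 4.17 and 4.26, and no pair of arrays was identical. M1P arrays 1 and 2 stood apart most in the transferrin receptor control: their 3'-minus-5' signal was 1.44 to 1.72, against 1.91 to 2.60 on the other 13 arrays. Its 3' signals on these 2 arrays were 4.97 and 5.07, and its 5' signals, 3.54 and 3.36, lay below the array medians. The 3'-minus-5' signal of the actin control was 0.64 to 0.68, against 0.68 to 0.98, so the ranges nearly met. The Gapdh control gave 0.25 to 0.27, against 0.19 to 0.45, and the pyruvate carboxylase control 0.80 to 1.35, against -0.02 to 0.90. Counts of called genes that involve M1P are therefore given with and without these arrays, for the companion lists, the order of lines and the complexes in the F test as an alternative chosen after seeing the data. The epithelial keratins Krt8 and Krt18 averaged at least 13.58 in each line, and Cdh1 at least 10.47. Epcam averaged 5.57 or less, Cldn4 3.73 or less and Esrp1 2.57 or less, so these epithelial markers were low in all 5 lines, NMuMG included. Krt19 averaged at least 12.6 in each line. The keratin Krt7 averaged 4.17 in L2P, 4.37 in L1P, 4.65 in M1P and 4.81 in E1KD, against 10.27 in NMuMG, and fell by 5.46 in E1KD relative to NMuMG (adjusted p = 2.22e-07). In bulk RNA, fewer cells of a type and less RNA per cell cannot be told apart.

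Most of the 81 genes gave strong signals. The mean over the 15 arrays was at least 10 for 67 genes and at least 6 for 72, and the median of these means was 11.63, against 5.45 over all genes. The 9 genes under 6 were Cox4i2, Cox6a2, Cox6b2, Cox7a1, Cox7b2, Cox7c, Cox8b, Ndufa4l2 and Ndufb4. Signals of different probe sets are not comparable. Without detection calls, a low signal may come from a gene that was not expressed or from a probe set that detects its gene poorly.

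The 5 lines differed most clearly in M1P, where subunit signals were high, and in L1P and L2P, where they were low. Of the 81 genes, 71 were above their own 15-array mean on M1P array 2, 66 on array 1 and 64 on array 3. The counts were 35, 14 and 15 on the L2P arrays, 9, 24 and 6 on the L1P arrays, 29, 22 and 55 on the E1KD arrays, and 60, 55 and 57 on the NMuMG arrays. All genes shifted too. Of all 18193 genes, 12779, 11959 and 10132 were above their mean on M1P arrays 1, 2 and 3. The counts over all genes were 10569, 6600 and 5826 on the L2P arrays and 7555, 7196 and 5634 on the L1P arrays. They were 8906, 6241 and 8142 on the E1KD arrays, and 9918, 9942 and 9456 on the NMuMG arrays. M1P held the highest line mean of 47 genes (58% of the 81 genes, against 51.2% of all genes), and NMuMG that of 25 (30.9%, against 18.8%). L1P held the lowest line mean of 40 genes (49.4%, against 29.8%), and L2P that of 21 (25.9%, against 18.4%). Without M1P arrays 1 and 2, M1P held the highest mean of 32 genes (39.5%, against 32.5% of all genes) and NMuMG that of 32 (39.5%, against 31%), and L1P held the lowest mean of 40 (49.4%, against 26.8%). An F test over the 5 lines passed an adjusted p of 0.05 for 42 of the 81 genes (51.9%), beside 31.8% of all genes tested. They were 18 of 35 in complex I, 2 of 4 in complex II, 4 of 8 in complex III, 10 of 17 in complex IV and 8 of 17 in complex V. Without M1P arrays 1 and 2, 34 passed (42%, beside 27.3% of all genes), with 13, 1, 3, 8 and 9 in complexes I to V. With all arrays, the lowest adjusted p of that test were 1.9e-05 for Atp5md, a small ATP synthase membrane subunit, and 0.000166 for Ndufb8, an accessory subunit of the membrane arm of complex I.

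**Figure D1:**
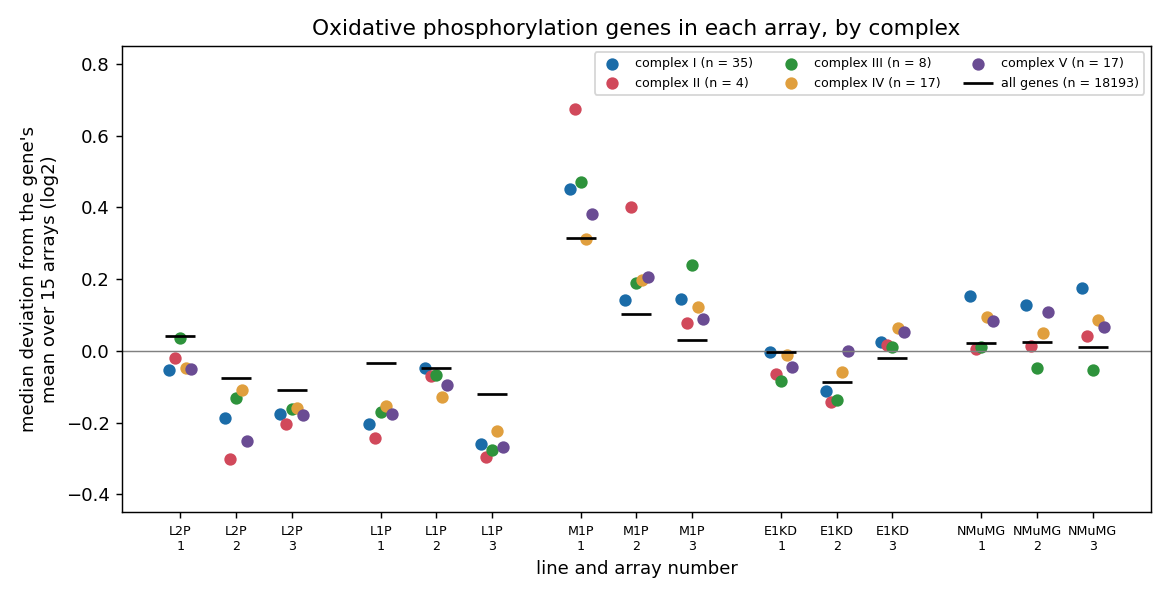
Median deviation of each complex's genes, and of all genes (black marks), from their own 15-array mean (log2, vertical axis) on each of the 15 arrays, ordered L2P, L1P, M1P, E1KD and NMuMG. The points of the complexes lie above 0 on the M1P arrays and below 0 on the L1P arrays. The marks of all genes lie at 0.316, 0.102 and 0.031 on the M1P arrays, and at -0.035, -0.049 and -0.12 on the L1P arrays.

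Lung-derived L1P set against tumour-derived M1P gave the most changes. In L1P, 46 of the 81 subunit genes (56.8%) had fallen relative to M1P and 2 had risen (limma, adjusted p under 0.05). Over all genes 25.9% fell and 13.6% rose, 39.5% in either direction. The order of the comparisons depended on the fit. With only the 2 lines compared in each fit, 2 subunit genes passed here (1.58% of all genes called). E1KD with NMuMG then gave 12 (18.9%). The arrays of the lines did not overlap for 57 of the 81 genes, beside 49.6% of all genes. The median difference was -0.385 over the 81 genes and -0.246 over all genes. In L1P 72 of the 81 were lower, beside 13009 of all 18193 genes. By complex, 19 of 35 fell in complex I, 3 of 4 in complex II, 4 of 8 in complex III, 9 of 17 in complex IV and 11 of 17 in complex V, with medians of -0.385, -0.645, -0.4, -0.385 and -0.437. The fallers were mostly strongly detected genes. Among the 8209 genes with a mean signal of at least 6, 27% fell and 26.7% rose, and among the 72 subunit genes of that kind 45 fell and 2 rose.

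In complex I, Ndufb8 had signals of 10.97, 11.14 and 10.84 in L1P, against 12.33, 11.80 and 11.77 in M1P. The groups did not overlap, and the difference was -0.98 ± 0.15 (SE, adjusted p = 0.0013). Ndufb2, another membrane-arm accessory subunit, had 10.18, 10.35 and 10.005 in L1P, against 11.42, 10.71 and 10.95 in M1P, a fall of 0.85 (adjusted p = 0.00473). Ndufs1, the largest iron-sulfur subunit of the electron input module, ran the other way, with 10.01, 10.21 and 10.23 in L1P, against 7.60, 9.34 and 9.95 in M1P. Its rise of 1.19 ± 0.44 (adjusted p = 0.0468) rested on the low M1P array 1; without that array the adjusted p was 0.16, and without 1 of the other arrays that ended the call it was 0.0501 to 0.119. Ndufv1, the flavoprotein subunit beside it, had a difference of -0.31 that did not pass (adjusted p = 0.106).

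Complex II, which is also the succinate dehydrogenase of the citrate cycle, moved in 3 of its 4 genes. Sdhb, whose promoter is shown above, had 11.13, 11.45 and 11.08 in L1P, against 12.41, 11.90 and 12.05 in M1P, a difference of -0.91 ± 0.15 (adjusted p = 0.00156). Sdhc, a membrane anchor, had 9.20, 9.43 and 8.996 in L1P, against 10.56, 10.15 and 9.70 in M1P, and fell by 0.93 (adjusted p = 0.00597). Sdhd, the other anchor, fell by 0.38 (adjusted p = 0.0435). Sdha, the flavoprotein that oxidises succinate, had 10.45, 10.68 and 10.50 in L1P, against 10.82, 10.84 and 10.51 in M1P; the groups overlapped and the difference of -0.18 ± 0.12 did not pass (adjusted p = 0.23).

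In complex III, Uqcrh, the hinge protein that contacts cytochrome c1, had 11.85, 11.94 and 11.75 in L1P, against 12.64, 12.42 and 12.49 in M1P. It fell by 0.67 (adjusted p = 0.00179). Uqcr11, a small subunit, fell by 0.72 (adjusted p = 0.00533). Uqcrc1, a core subunit, fell by 0.61 (adjusted p = 0.0147), and Uqcrfs1, the Rieske iron-sulfur protein, by 0.44 (adjusted p = 0.022). Uqcrc1 did not pass without M1P array 1 (adjusted p = 0.051) or L1P array 3 (0.0605). Uqcrfs1 did not pass without M1P array 1 (0.0827), M1P array 2 (0.0536) or L1P array 3 (0.078).

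In complex IV, Cox4i1, the widely expressed form of the regulatory subunit 4, had 12.49, 12.55 and 12.44 in L1P, against 13.34, 13.03 and 13.04 in M1P. The groups did not overlap and the difference was -0.64 ± 0.10 (adjusted p = 0.00163). Cox7a1 had 4.59, 5.37 and 4.47 in L1P, against 7.70, 6.66 and 5.76 in M1P, and fell by 1.89 (adjusted p = 0.00569). Cox5a, a matrix-facing subunit, had 13.01, 13.001 and 12.91 in L1P, against 13.22, 13.20 and 12.91 in M1P; its difference of -0.14 ± 0.13 did not pass (adjusted p = 0.371).

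In complex V, Atp5md had 10.47, 10.45 and 10.40 in L1P, against 11.27, 11.18 and 11.50 in M1P, a difference of -0.88 ± 0.10 (adjusted p = 0.00026). Atp5k had 11.79, 11.87 and 11.66 in L1P, against 12.69, 12.53 and 12.62 in M1P, a difference of -0.84 ± 0.11 (adjusted p = 0.000406). In both genes the groups did not overlap.  Atp5a1, the alpha subunit, had 11.33, 11.53 and 11.30 in L1P, against 12.09, 11.90 and 11.58 in M1P, and fell by 0.47 (adjusted p = 0.0273). Its adjusted p was 0.107 without M1P array 1, 0.0547 without M1P array 2, 0.0697 without L1P array 1 and 0.0935 without L1P array 3. Atp5b, the catalytic beta subunit, had 12.86, 12.97 and 12.89 in L1P, against 13.36, 13.12 and 12.96 in M1P, and its difference of -0.24 ± 0.12 did not pass (adjusted p = 0.12). Atp5pb, the peripheral stalk subunit b, rose by 0.74 (adjusted p = 0.0393), with 12.52, 12.61 and 12.62 in L1P, against 11.14, 12.02 and 12.36 in M1P; its adjusted p was 0.159 without M1P array 1, and 0.07, 0.0858 and 0.104 without L1P arrays 1, 2 and 3.

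Leaving out M1P arrays 1 and 2 together kept 15 falls of L1P relative to M1P and no rise, while 4.12% of all genes fell. The median was then -0.255 over the 81 genes and -0.102 over all genes. The 15 were Ndufa7, Ndufb1, Ndufb2, Ndufb8, Sdhb, Uqcr11, Uqcrh, Cox4i1, Cox6c, Cox7a2, Atp5j2, Atp5k, Atp5l, Atp5md and Atp5mpl, and the single M1P array left is then assumed to vary like the other lines. Several differences were smaller without these arrays: -0.49 for Sdhc, -0.06 for Sdhd, -0.15 for Uqcrfs1, -0.95 for Cox7a1, -0.19 for Atp5a1, and 0.20 for Ndufs1 and 0.22 for Atp5pb. Leaving out M1P array 1 alone gave 31 calls (17.9% of all genes called), and leaving out L1P array 3 gave 24 (13.7%), against 48 with all arrays. Where another probe set of a fallen or risen gene had a mean of at least 6, its difference had the same sign for 39 of 39 probe sets in 26 genes. Of the 46 fallers 39 had a promoter in the table, with the NRF1 sequence in 10, the ETS sequence in 4 and the YY1 sequence in 3.

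**Figure D2:**
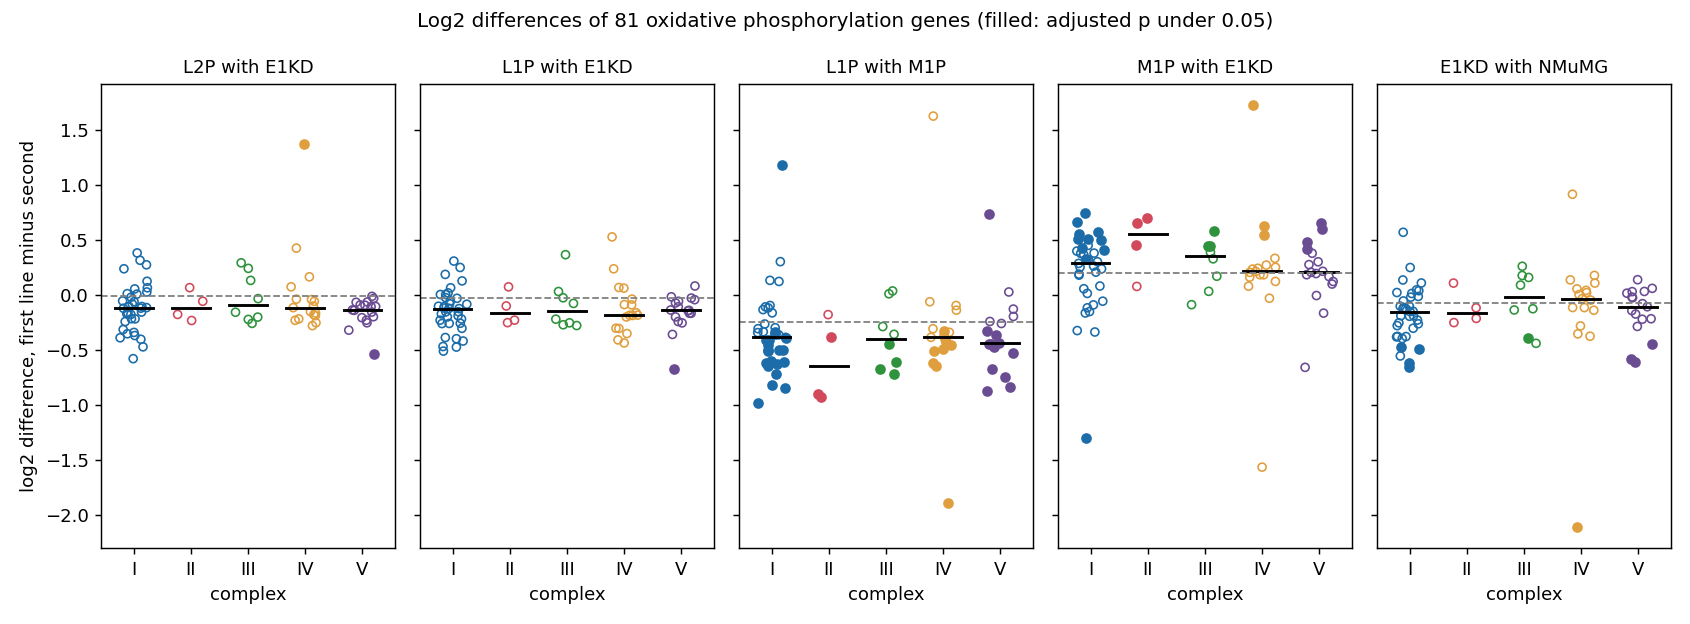
Log2 difference of each subunit gene in the comparisons of the lines, grouped by complex, with 1 point per gene, filled where the gene passed an adjusted p of 0.05. Black bars are complex medians and the dashed line is the median of all genes. In L1P with M1P most points lie below 0, and in M1P with E1KD most lie above 0.

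M1P set against its parent E1KD asks what differed after growth as a fat pad tumour. In M1P, 23 of the 81 subunit genes (28.4%) had risen and 1 had fallen, beside 17.7% of all genes that rose and 9.86% that fell, 27.6% in either direction. The arrays of the lines did not overlap for 41 of the 81, beside 40.2% of all genes. The median difference was 0.253 over the 81 genes, against 0.201 over all genes. In M1P 67 of the 81 were higher, beside 12745 of all 18193 genes. Rises numbered 10 of 35 in complex I, 3 of 4 in complex II, 3 of 8 in complex III, 3 of 17 in complex IV and 4 of 17 in complex V, with medians of 0.288, 0.556, 0.36, 0.215 and 0.207. With genes under a mean signal of 6 left out, 20 rose and 1 fell, beside 23.4% and 21.8% of the 8209 genes left. The M1P arrays also enter the comparison of L1P with M1P, so the values of a gene in these comparisons are not independent.

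Ndufa13, a complex I subunit that also bears the name GRIM-19, had 12.58, 12.18 and 12.13 in M1P, against 11.60, 11.41 and 11.63 in E1KD. The groups did not overlap and the rise was 0.74 ± 0.14 (adjusted p = 0.00477). Ndufb1, a small accessory subunit, had 8.25, 7.60 and 8.02 in M1P, against 7.52, 7.03 and 7.31 in E1KD, a rise of 0.67 (adjusted p = 0.0198). Ndufv1 had 12.43, 11.91 and 11.78 in M1P, against 11.49, 11.41 and 11.55 in E1KD, a rise of 0.56 (adjusted p = 0.0202). Ndufb8 rose by 0.51 (adjusted p = 0.0307), but its probe set of largest variance had a difference of -0.55 that did not pass (adjusted p = 0.0819). Ndufs1 fell by 1.30 ± 0.44 (adjusted p = 0.0432), with 10.07, 10.45 and 10.28 in E1KD beside the M1P signals given above; without M1P array 1 the adjusted p was 0.121, and without 1 of the other arrays that ended the call it was 0.0522 to 0.131. Without E1KD array 2, Ndufb1 had an adjusted p of 0.091 and Ndufv1 one of 0.0812, and without M1P array 1 they had 0.0728 and 0.0539. The rise of Ndufb8 did not pass without M1P array 1 (0.113) or without E1KD array 1, 2 or 3 (0.062, 0.117 and 0.0505).

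Sdhb rose by 0.65 ± 0.15 (adjusted p = 0.0105), with 11.47, 11.42 and 11.52 in E1KD, all below the M1P arrays. Sdhc rose by 0.70 (adjusted p = 0.0244) and Sdha did not pass, at 0.08 ± 0.12 (adjusted p = 0.614). In complex III, Uqcrc1 had 11.63, 11.04 and 11.13 in M1P, against 10.75, 10.64 and 10.66 in E1KD, a rise of 0.58 (adjusted p = 0.0227). Uqcrh rose by 0.45 (adjusted p = 0.0153), and Uqcrfs1 did not pass, at 0.17 ± 0.13 (adjusted p = 0.304). Without E1KD array 2 the rises of Sdhc, Uqcrc1 and Uqcrh did not pass (adjusted p = 0.102, 0.0838 and 0.0638). Sdhc and Uqcrc1 also did not without M1P array 1 (0.0914 and 0.08), nor Uqcrc1 without E1KD array 3 (0.0612).

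Atp5j2 had 13.20, 12.97 and 12.99 in M1P, against 12.38, 12.41 and 12.56 in E1KD, a rise of 0.60 ± 0.11 (adjusted p = 0.00396). Atp5e, the epsilon subunit of the ATP synthase, had 12.13, 11.80 and 11.79 in M1P, against 11.29, 11.08 and 11.37 in E1KD, a rise of 0.66 (adjusted p = 0.00983). The alpha and beta subunit genes Atp5a1 and Atp5b had differences of 0.30 and 0.17 that did not pass (adjusted p = 0.123 and 0.28). Atp5e did not pass without E1KD array 2 (adjusted p = 0.0538). In complex IV, Cox7a1 rose by 1.73 ± 0.40 (adjusted p = 0.0117), but not without E1KD array 2 (0.0592). Cox4i1 and Cox5a did not pass, at 0.24 and 0.21 (adjusted p = 0.0969 and 0.211).

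The number of rises that passed varied with the arrays used. Without M1P arrays 1 and 2 only Cox7b2 passed (0.92, adjusted p = 0.0412), beside 4.45% of all genes called, with a median of 0.139 over the 81 genes and 0.074 over all genes, and 59 of the 81 were higher. All 23 risers were still higher in M1P, 13 of them by at least 80% of the difference with all arrays, and their median difference was 0.428, against 0.546 with all arrays. Ndufa13 differed by 0.58, Ndufb1 by 0.73, Sdhb by 0.58, Uqcrh by 0.42 and Atp5j2 by 0.54, while Sdhc differed by 0.26, Ndufv1 by 0.30, Ndufb8 by 0.31 and Cox7a1 by 0.79. The number of calls was 10 without M1P array 1 (11.1% of all genes called), 37 without M1P array 3 (46.8%), 15 without E1KD array 1 (17.2%) and 5 without E1KD array 2 (6.08%). As shares of the 81 genes these were 12.3%, 45.7%, 18.5% and 6.17%, near the shares of all genes. Other probe sets with a mean of at least 6 had the same sign as the called one for 19 of 20 probe sets in 12 genes.

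**Figure D3:**
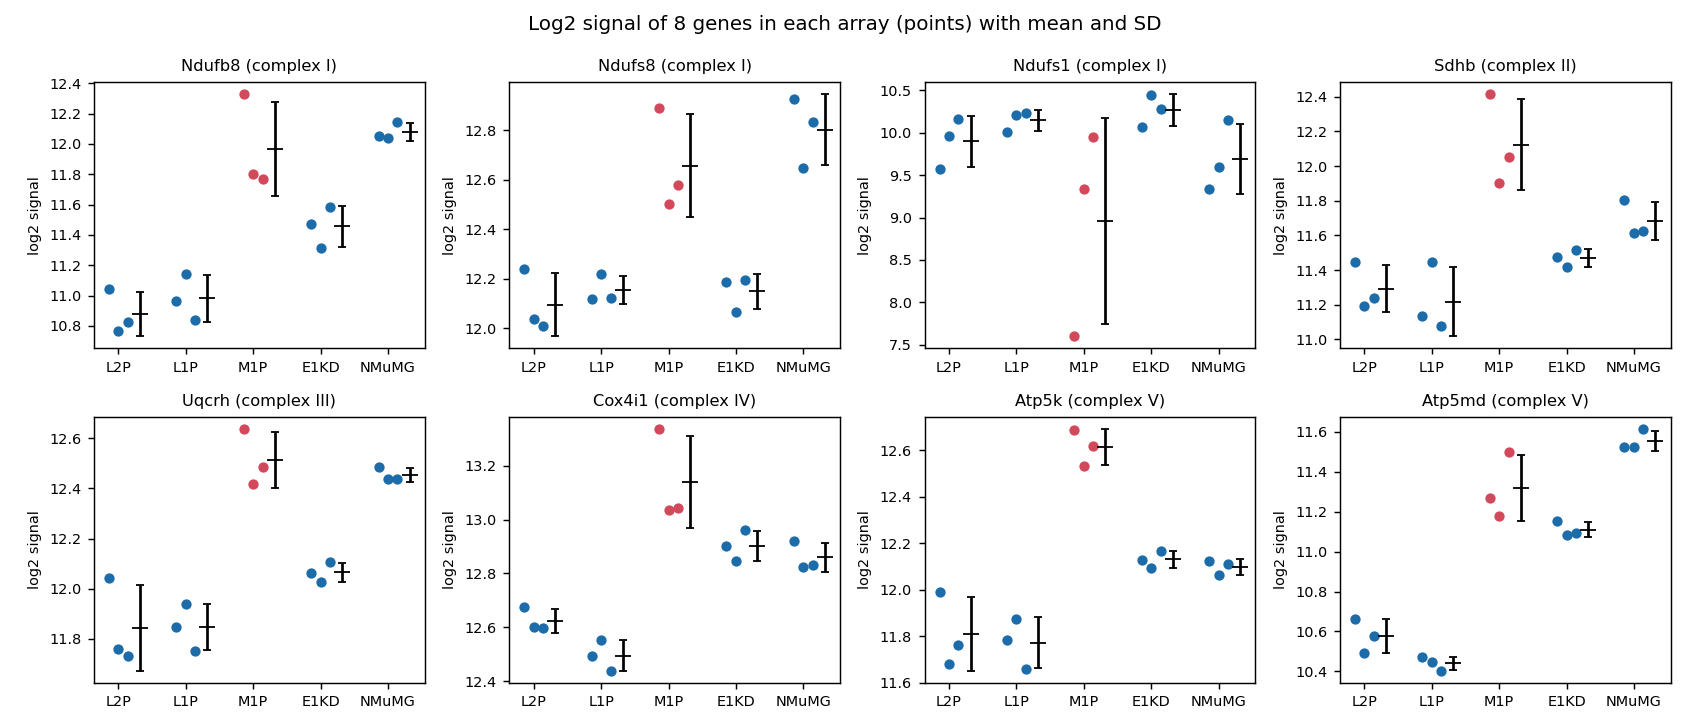
Log2 signal of 8 subunit genes on each array, with 3 points per line, ordered L2P, L1P, M1P (red), E1KD and NMuMG, beside the mean and SD (n = 3); each panel has its own axis range. For Atp5md the L2P and L1P points lie below all points of the other lines.

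E1KD set against NMuMG asks what differed with hnRNP E1 silenced. In E1KD, 9 of the 81 subunit genes (11.1%) had fallen and 0 had risen (limma), beside 6.49% of all genes that fell and 3% that rose, 9.49% in either direction. The arrays of the lines did not overlap for 37 of the 81, beside 36% of all genes. At an unadjusted p under 0.05, 20 were lower and 1 was higher. The median difference was -0.116, against -0.068 over all genes. In E1KD 55 of the 81 were lower, beside 11106 of all 18193 genes. The 9 were Ndufb8, Ndufb11, Ndufc1 and Ndufs8 of complex I, Uqcrh of complex III, Cox7a1 of complex IV, and Atp5a1, Atp5e and Atp5md of complex V, with none in complex II.

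Ndufs8, an iron-sulfur subunit of the peripheral arm, had 12.19, 12.07 and 12.19 in E1KD, against 12.93, 12.65 and 12.83 in NMuMG. The groups did not overlap and the difference was -0.65 ± 0.13 (adjusted p = 0.00456). Ndufb8 had 11.47, 11.32 and 11.58 in E1KD, against 12.05, 12.04 and 12.15 in NMuMG, a fall of 0.62 (adjusted p = 0.0205). Uqcrh had 12.06, 12.03 and 12.10 in E1KD, against 12.48, 12.44 and 12.44 in NMuMG, a fall of 0.39 (adjusted p = 0.0419).

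Cox7a1 had the widest difference of the group, with 4.804, 4.62 and 5.50 in E1KD, against 7.24, 7.14 and 6.87 in NMuMG. It fell by 2.11 ± 0.40 (adjusted p = 0.00382). Atp5a1 had 11.47, 11.57 and 11.60 in E1KD, against 12.19, 12.14 and 12.07 in NMuMG, a fall of 0.58 (adjusted p = 0.0229). Atp5e fell by 0.61 (adjusted p = 0.0155), and Atp5md by 0.44 (adjusted p = 0.0155). Atp5b, by contrast, had a difference of 0.02 ± 0.12 (adjusted p = 0.959).

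Only Ndufs8 and Cox7a1, of the 6 genes of this comparison followed through the alternative settings, passed in each of them. With 1 array of either line left out, the highest adjusted p was 0.0996 for Ndufb8, 0.144 for Uqcrh, 0.0845 for Atp5a1 and 0.0836 for Atp5e, each time above 0.05 for several of the 6 arrays. Without 1 array at a time the number of calls was 4, 4 and 3 for NMuMG arrays 1, 2 and 3, 5, 2 and 5 for E1KD arrays 1, 2 and 3, and 17 without M1P array 1. Of all genes, 6.26%, 6.41% and 6.61%, then 6.84%, 5.49% and 6.76%, and 16.9% were called in these settings. Without M1P arrays 1 and 2 there were 17 calls, beside 11.3% of all genes that fell. Other probe sets of the fallen genes had the same sign for 12 of 12 probe sets in 6 genes.

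In the lung-derived lines few subunit genes passed relative to E1KD, although most were lower. In L1P, 1 subunit gene had fallen relative to E1KD and 0 had risen (limma), beside 1.29% and 1.19% of all genes (2.48% in either direction); at an unadjusted p under 0.05, 16 were lower and 3 higher. In L2P, 1 had fallen and 1 had risen relative to E1KD, beside 1.64% and 2.14% of all genes (3.78% in either direction). Arrays did not overlap for 29 of the 81 between L2P and E1KD, beside 20% of all genes, and for 30 between L1P and E1KD, beside 23.8%. Relative to E1KD, 65 of the 81 were lower in L1P (10095 of all 18193 genes) and 63 in L2P (9274 of all genes). The median difference from E1KD was -0.142 in L1P (all genes -0.026) and -0.114 in L2P (all genes -0.005). These medians are of the size of that between E1KD and NMuMG, where 9 genes passed. With array weights, 29 subunit genes passed in L2P relative to E1KD (18.5% of all genes called) and 24 in L1P (11.8%). L1P and L2P are set against the same 3 E1KD arrays.

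Atp5md was the gene that fell in both. It had 10.66, 10.49 and 10.58 in L2P and 10.47, 10.45 and 10.40 in L1P, against 11.15, 11.08 and 11.09 in E1KD. The difference was -0.53 ± 0.10 for L2P (adjusted p = 0.00973) and -0.67 ± 0.10 for L1P (adjusted p = 0.0027). Without L2P array 2 the adjusted p for L2P was 0.0559.

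Cox7b2, a testis form of subunit 7b, rose in L2P relative to E1KD, with 3.92, 4.54 and 4.45 in L2P, against 2.90, 2.91 and 2.97 in E1KD. The rise was 1.38 ± 0.18 (adjusted p = 0.000571), between signals near the low end of the array. Cox4i1 in L1P had a difference from E1KD of -0.41 ± 0.10 (adjusted p = 0.065), and Ndufb8 in L2P one of -0.58 (adjusted p = 0.0584); neither passed. For L2P the number of calls was 6 without M1P array 1 (6.4% of all genes called), 6 without M1P arrays 1 and 2 (7.43%) and 1 without L2P array 2 (2.45%). For L1P it was 8 without M1P array 1 (4.6%) and 7 without M1P arrays 1 and 2 (5.45%).

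In L2P relative to L1P no subunit gene passed in limma, beside 0.0934% of all genes that rose and 0.0495% that fell (0.143% in either direction). At an unadjusted p under 0.05, 5 of the 81 were higher in L2P and none was lower. The median difference was 0.044, against 0.022 over all genes. Without L2P array 1, 1 gene passed. Cox8a, the widely expressed form of subunit 8, had 12.36, 12.24 and 12.27 in L2P, against 11.98, 11.90 and 11.87 in L1P; its groups did not overlap, as in 12 of the 81 genes and 9.28% of all genes. Its difference of 0.38 ± 0.12 did not pass (adjusted p = 1).

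Several complex IV subunits have a widely expressed form and a form restricted to muscle, lung, testis or low oxygen. The widely expressed forms had mean signals of at least 6, and the restricted forms Cox4i2, Cox6a2, Cox6b2, Cox7a1, Cox7b2, Cox8b and Ndufa4l2 had means under 6. Cox8c, the testis form of subunit 8, averaged 6.28. Cox4i2, the lung and low-oxygen form of subunit 4, had 4.45, 4.05 and 4.12 in L2P, 4.14, 4.07 and 4.19 in L1P, 4.34, 4.57 and 4.65 in M1P, 4.58, 4.63 and 4.11 in E1KD, and 4.58, 4.52 and 4.56 in NMuMG. The lines overlapped in part, and the gene passed in none of the 6 comparisons. Cox6a2, Cox6b2 and Ndufa4l2 passed in none either.

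In L1P relative to M1P the widely expressed forms Cox4i1, Cox6a1, Cox6b1, Cox7a2, Cox7a2l and Cox8a all fell, by 0.64, 0.46, 0.43, 0.40, 0.62 and 0.49. Cox7a2l is known for its part in respiratory supercomplexes. Without M1P arrays 1 and 2, Cox4i1 and Cox7a2 of these 6 still passed. Cox8a did not pass without L1P array 3 (adjusted p = 0.0513). Ndufa4, now counted with complex IV though named for complex I, had 11.87, 11.98 and 11.93 in L1P, against 11.69, 12.14 and 12.35 in M1P, and did not pass (-0.13 ± 0.15, adjusted p = 0.464).

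Among the restricted forms, Cox7a1 and Cox7b2 had the widest line differences. Cox7b2 averaged 4.30 in L2P, 3.46 in L1P, 3.55 in M1P, 2.93 in E1KD and 2.82 in NMuMG, with the L2P arrays above all others, and rose by 0.62 in M1P relative to E1KD (adjusted p = 0.0279). That rise was lost when any 1 of the E1KD arrays or M1P array 1 or 3 was left out (adjusted p = 0.0517 to 0.0896), after quantile normalization, with array weights and when only the 2 lines were fitted (adjusted p = 0.135 to 0.153). For Cox7a1, the 3 NMuMG signals lay above all L2P, L1P and E1KD signals, and the 3 M1P signals, 7.70, 6.66 and 5.76, lay far apart. Cox8b, the muscle form of subunit 8, rose in M1P relative to E1KD by 0.55 (adjusted p = 0.0419), with 5.43, 4.68 and 4.68 in M1P, against 4.24, 4.31 and 4.61 in E1KD. Without M1P array 1 its adjusted p was 0.15, and without 1 of the other arrays that ended the call it was 0.0502 to 0.129. Skeletal muscle markers averaged 4.2 to 4.45 on the M1P arrays, against 3.73 to 3.98 on the E1KD arrays, and 2 of 6 rose (0 without M1P arrays 1 and 2). Mylpf rose by 0.85, from 4.92 in E1KD to 5.78 in M1P (adjusted p = 0.0197). Acta1 averaged 5.65 in M1P and 5.15 in E1KD, and Ckm 5.18 and 4.88. The means were 2.79 and 2.48 for Myh4, 2.93 and 2.63 for Tnnt3, and 3.46 and 3.26 for Myog. The part of muscle markers in the rise of muscle-type forms was not tested.

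**Figure D4:**
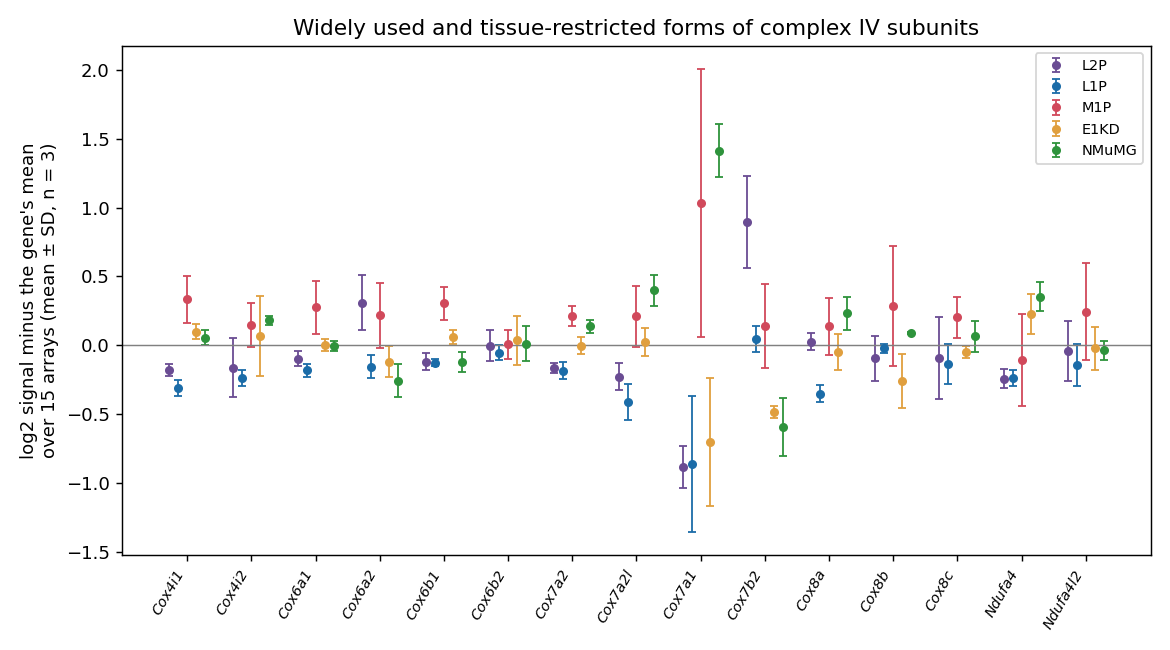
Deviation of each line's mean from the gene's own 15-array mean (log2, vertical axis; bars are the SD over 3 arrays) for the widely used and tissue-restricted complex IV genes. The Cox7a1 points spread most, with NMuMG and M1P above 0 and the other lines below.

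Genes that build or serve the complexes were followed beside them, and their counts are read against the shares of all genes: 25.9% fell and 13.6% rose in L1P relative to M1P, 17.7% rose and 9.86% fell in M1P relative to E1KD, and 6.49% fell and 3% rose in E1KD relative to NMuMG. Without M1P arrays 1 and 2 these shares were 4.12%, 3.17%, 2.26%, 2.18%, 11.3% and 7.71%. Of 46 assembly factors, which insert cofactors and join subunits, 19 fell (41.3%) and 5 rose in L1P relative to M1P, and 19 rose (41.3%) and 4 fell in M1P relative to E1KD. When M1P arrays 1 and 2 were left out, 9 fell and 1 rose in L1P relative to M1P, and 3 rose and 0 fell in M1P relative to E1KD. In E1KD relative to NMuMG 7 fell (15.2%) and 1 rose, and without these arrays 15 fell and 1 rose. Uqcc3, which helps build complex III, fell by 1.30 in L1P relative to M1P (adjusted p = 0.00079; -1.02 and 0.0178 without M1P arrays 1 and 2). Ndufaf3, a complex I assembly factor, rose by 1.38 in M1P relative to E1KD (adjusted p = 0.00247; 0.91 and 0.0517 without these arrays). Atpaf1, which assembles the ATP synthase head, fell by 1.21 in E1KD relative to NMuMG (adjusted p = 0.00147), and was higher than in E1KD by 1.00 in L2P (adjusted p = 0.0101) and by 1.16 in L1P (adjusted p = 0.00459). Other assembly factors went the opposite way. Sco1 rose by 1.65 in L1P relative to M1P (adjusted p = 0.00998) and fell by 1.12 in M1P relative to E1KD (adjusted p = 0.0495). Ndufaf4 rose by 1.11 in E1KD relative to NMuMG (adjusted p = 0.0335). Relative to E1KD, Fmc1 fell by 0.83 in L2P (adjusted p = 0.00439) and by 0.84 in L1P (adjusted p = 0.00542).

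Of 19 carriers and ubiquinone-synthesis genes, 8 fell (42.1%) and 1 rose in L1P relative to M1P, and 8 rose (42.1%) and 0 fell in M1P relative to E1KD. With M1P arrays 1 and 2 left out, 0 fell and 0 rose in L1P relative to M1P, and 2 rose and 0 fell in M1P relative to E1KD. Coq3, a methyltransferase of ubiquinone synthesis, rose relative to E1KD by 1.59 in L2P (adjusted p = 0.00031), by 1.34 in L1P (adjusted p = 0.00173) and by 1.43 in M1P (adjusted p = 0.0009; 1.08 and 0.0316 without M1P arrays 1 and 2). It also rose by 1.11 in E1KD relative to NMuMG (adjusted p = 0.00254). Atpif1, the inhibitor of ATP hydrolysis by complex V, fell by 0.72 in E1KD relative to NMuMG (adjusted p = 0.00371).

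The mitochondrial ribosome, which translates the subunits encoded in mitochondrial DNA, had 28 of 76 genes fall (36.8%) and 4 rise in L1P relative to M1P, and 22 rise (28.9%) and 2 fall in M1P relative to E1KD. Leaving out M1P arrays 1 and 2, 10 fell and 0 rose in L1P relative to M1P, and 2 rose and 0 fell in M1P relative to E1KD. In E1KD relative to NMuMG 11 fell (14.5%) and 1 rose, and without these arrays 20 fell and 1 rose. In the cytosolic ribosome 4 of 46 fell (8.7%) and 2 rose in L1P relative to M1P, and 5 rose (10.9%) and 2 fell in M1P relative to E1KD; without M1P arrays 1 and 2 the counts were 1 and 0, and 1 and 0. Of 23 citrate cycle genes, 6 fell (26.1%) and 2 rose in L1P relative to M1P, and 3 rose (13%) and 2 fell in M1P relative to E1KD, near the shares of all genes; without these arrays the counts were 0 and 0, and 0 and 1.

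Of 24 regulators of mitochondrial biogenesis, 3 fell (12.5%) and 4 rose (16.7%) in L1P relative to M1P, and 3 rose and 3 fell (12.5% each) in M1P relative to E1KD; without M1P arrays 1 and 2 the counts were 0 and 4, and 1 and 0. Esrra, a nuclear receptor of the biogenesis programme, fell by 1.23 in L1P relative to M1P (adjusted p = 0.00253; -0.75 and 0.058 without these arrays). Ppargc1b, a coactivator, rose by 1.25 in E1KD relative to NMuMG (adjusted p = 0.00658). Creb1 rose by 2.80 in L1P relative to M1P (adjusted p = 0.021; 0.73 and 0.59 without them). The only subunit encoded in mitochondrial DNA with a probe set here was ND5. Its signal lay between 9.92 and 11.57 on the M1P arrays, against 11.73 to 12.31 on the E1KD arrays, a fall of 1.36 ± 0.41 (adjusted p = 0.031). ND5 rose by 1.21 in L1P relative to M1P (adjusted p = 0.0358). Neither passed without M1P arrays 1 and 2, at -0.37 (adjusted p = 0.705) and 0.22 (adjusted p = 0.807).

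Markers of host cell types were read beside the M1P results. Relative to E1KD, 6 of 7 fibroblast, 7 of 7 leukocyte, 5 of 5 endothelial and 6 of 6 skeletal muscle markers were higher in M1P, of which 1, 0, 1 and 2 rose. Relative to M1P, 7 of 7, 4 of 7, 5 of 5 and 6 of 6 were lower in L1P, of which 3, 2, 0 and 1 fell beside the subunit genes. Most genes moved likewise: of all 18193 genes, 12745 were higher in M1P than in E1KD, and 13009 were lower in L1P than in M1P. With M1P arrays 1 and 2 left out, 0 of these markers rose in M1P relative to E1KD, and in L1P relative to M1P 1 muscle marker fell and 1 leukocyte marker rose.

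Fibroblast markers averaged 3.49 to 4.24 on the M1P arrays, against 3.25 to 3.38 on the E1KD arrays. The collagen gene Col1a2 rose by 1.09 in M1P relative to E1KD (adjusted p = 0.0464; 0.39 and 0.202 without M1P arrays 1 and 2) and fell by 1.04 in L1P relative to M1P (adjusted p = 0.0429). Leukocyte markers averaged 4.78 to 5.31 on the M1P arrays, against 4.6 to 4.78 on the E1KD arrays. Cd14 averaged 9.74 in L1P, against 10.85 in M1P, and fell by 1.11 (adjusted p = 0.00936; -0.64 and 0.257 without these arrays); it averaged 10.22 in E1KD and 10.89 in NMuMG, cultures that had not been in mice. Cd68 averaged 6.18 in L2P, 5.65 in L1P, 5.37 in M1P, 5.01 in E1KD and 5.02 in NMuMG. Lyz2 averaged 5.20, 5.03, 4.53, 4.19 and 4.29 in the same order, and Csf1r 4.83, 4.78, 5.34, 5.04 and 5.27. Line means were 2.46 to 2.63 for Ptprc, 3.29 to 3.56 for Adgre1 and 2.64 to 3.03 for Itgam. Of the 7 leukocyte markers, 0 rose in L2P or L1P relative to E1KD. Endothelial markers averaged 3.38 to 3.54 on the M1P arrays, against 3.08 to 3.34 on the E1KD arrays; Kdr rose by 0.57 (adjusted p = 0.0382; 0.38 and 0.433 without these arrays), and Pecam1 had line means of 2.80 to 2.98. Of 4 adipocyte markers, 3 were higher in M1P than in E1KD and 0 rose, while Fabp4 fell by 0.87 (adjusted p = 0.00871). Fabp4 averaged 2.79 in M1P and 3.66 in E1KD, both low signals. Without M1P arrays 1 and 2 the median difference of the 4 markers was -0.182. In L1P relative to M1P, 3 of the 4 were lower and 0 fell. The part of host cells in these results was not tested.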

How the data were processed

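RNA from 15 samples was measured on Affymetrix mouse arrays. Per the labels' protocols, Trizol and a column kit were used for extraction, and biotin-labelled cRNA was made from 100 ng by a 3' in vitro transcription kit. The authors deposited log2 signals for 45101 probe sets; the submitters' processing notes name MAS5, RMA and the Affymetrix Expression Console, with versions not given in the sources used here and no statement of which of these made the values. The values, between 1.53 and 14.68, were used as deposited; arrays carry no read depth, and 3 arrays per line limit the precision.

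Gene symbols came from the platform table, with symbols updated by Entrez identifier in a RefSeq table for 34741 probe sets, while 204 kept their symbol. A single symbol was given to 34945, several to 932 and none to 9160, and 64 were controls; only the first kind was used. The probe set with the highest mean stood for each of 18193 genes. The 81 subunit genes had 164 probe sets, several in 48 genes.

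A linear model of the 5 lines, over the 15 arrays, was made in R 4.3.3 by limma 3.58.1 (10 residual and 2.98 prior degrees of freedom). Two-sided moderated tests were adjusted by Benjamini and Hochberg over 18193 genes in each of 6 comparisons, and rose or fell is written only of genes under 0.05. The fit was tested on simulated data. Alternatives were quantile normalization, a signal filter at 6, other probe sets per gene, array weights, a replicate block, each array left out, M1P arrays 1 and 2 left out, and only the 2 lines compared. Leaving out M1P arrays 1 and 2 for the companion lists, the order of lines and the F test by complex was chosen after seeing the data.

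The genes named were, per complex and comparison, the 2 largest passing rises and the 2 largest falls, fixed core subunits and fixed isoform partners. Of the largest passing rise and fall per companion list and comparison, only a part is named, and none for the ribosomes and the citrate cycle. The gene group and lists were chosen with earlier results of these data known. Array numbers were not used to pair the samples in the main fit. The correlations of same-numbered deviations ran from -0.496 to 0.618. For array 1 they were 0.374 to 0.58 in the comparisons among the silenced lines and -0.057 in E1KD with NMuMG. For arrays 2 and 3 their signs were mixed, with 0.593 in L2P with L1P and 0.618 in L1P with M1P for array 3. Whether array numbers mark shared handling was not tested. Promoter windows of 300 bases are from RefSeq (GRCm38.p6).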

Additional observations from a re-analysis of the deposited data

How the results depend on the processing

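Of 138 recomputed medians over the subunit genes, 138 moved by less than the median standard error of a gene's difference. That margin is wide beside the medians, so the count says little on how stable they are. The median of L2P with L1P, 0.044 as reported, was -0.002 without L2P array 1. That of M1P with E1KD, 0.253 as reported, was 0.139 without M1P arrays 1 and 2. Of the recomputed counts of called genes, 123 stayed within 1.5 times and 37 did not. Shares in brackets are of all genes called in the same setting. With only the 2 lines fitted, E1KD with NMuMG gave 12 calls (18.9%). For E1KD with NMuMG, 9 calls as reported became 20 (26.2%) with array weights, which did not reach their convergence tolerance, and 17 (19%) without M1P arrays 1 and 2; as shares of the 81 genes these were 24.7% and 21%. The 24 calls of M1P with E1KD became 0 (0.901%) with array weights, 1 (4.45%) without M1P arrays 1 and 2, and 0 (0.368%) when only the 2 lines were fitted. The 1 call of L1P with E1KD became 24 (11.8%) with array weights, 7 (5.45%) without M1P arrays 1 and 2, 5 (6.57%) when only the 2 lines were fitted, 3 (2.44%) after quantile normalization and 2 (2.59%) with the probe set of largest variance. The 2 calls of L2P with E1KD became 29 (18.5%) with array weights, 6 (7.43%) without M1P arrays 1 and 2, 4 (3.69%) with the probe set of largest variance and 1 (4.5%) with low signals left out. L2P with L1P, without a call as reported, had 2 (1.01%) with array weights and 1 (0.379%) without M1P arrays 1 and 2. The 48 calls of L1P with M1P became 4 (2.39%) with array weights, 15 (7.29%) without M1P arrays 1 and 2, and 2 (1.58%) when only the 2 lines were fitted. A replicate block by array number gave 2 calls (3.3%) in L1P with E1KD, 12 (12%) in E1KD with NMuMG, 32 (38%) in M1P with E1KD and 52 (47.9%) in L1P with M1P.

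With 1 array left out the calls varied together with the share of all genes called, given in brackets. They lay between 2 (5.49%) and 17 (16.9%) in E1KD with NMuMG, and between 5 (6.08%) and 37 (46.8%) in M1P with E1KD. In L1P with M1P they lay between 24 (13.7%) and 55 (54.2%). In L1P with E1KD they lay between 1 (1.5% to 3.32%) and 8 (4.6%), and in L2P with E1KD between 1 (2.45%) and 6 (6.4%). L2P with L1P had 0 (0.0989% to 0.291%) or 1 (0.187%). The F test over 5 lines gave 34 to 55. Ndufb8 in M1P with E1KD was reversed with its probe set of largest variance, at -0.55 (adjusted p = 0.0819). Of 43 named calls, 6 passed under each alternative run: Ndufs8 and Cox7a1 in E1KD with NMuMG, Atp5md in L1P with E1KD, Cox7b2 in L2P with E1KD, and Atp5k and Atp5md in L1P with M1P. Array weights ended 30 of them, fitting only the 2 lines 32, and leaving out M1P arrays 1 and 2 ended 24. The cause was not tested.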
